A study of Mus musculus with 41 samples.

Results

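The sites described here were 2416 stretches of the mouse genome with a listed Runx2 peak in rib chondrocytes. They had an overlapping Foxa2 peak of rib chondrocytes and no overlapping Runx2 peak of calvarial osteoblasts. They were chosen by overlap of deposited peak lists: each was a peak of the chondrocyte Runx2 list that shared 1 bp or more with a chondrocyte Foxa2 peak and none with an osteoblast Runx2 peak. They made up 15.7% of the 15390 chondrocyte Runx2 peaks and 22.4% of the 10782 that were absent from the osteoblast list. The osteoblast Runx2 list was shorter, with 10241 peaks. Throughout, absence means that no listed peak overlapped, which does not show that the factor was not bound. The series held 41 samples in 24 groups, of which 8 groups had a peak list used here, with 155773 peaks in all. Runx2 was precipitated through a FLAG tag from C57BL/6 mice with the Runx2-BioFL/+ knock-in at postnatal day 1, in rib chondrocytes and in calvarial osteoblasts, so 1 allele was tagged in both cell types (2 libraries and 1 peak list each). Foxa2 in rib chondrocytes and Jun in calvarial osteoblasts came from wild-type C57BL/6 mice of that age (1 library each). The remaining lists were FLAG precipitations from 3T3 cells, a mouse fibroblast line, that overexpressed Runx2BioFL or GFP, at day 0 and after 3 days in osteogenic medium with 100 ng/ml BMP-2 (1 library each). The chondrocytes and osteoblasts were obtained by dissection and enzyme digestion, and the labels name no sort of the cells used for ChIP-seq. The lists hold no expression values, so the labelled cell types were not checked against marker genes.

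Runx2 is a Runt-domain transcription factor that is required for osteoblast formation and that also drives the maturation of growth plate chondrocytes into hypertrophic cells. Foxa2 is a forkhead factor known for binding closed chromatin in endoderm, and in cartilage Foxa2 and Foxa3 promote chondrocyte hypertrophy. Jun is a subunit of AP-1, a factor found at many enhancers of mesenchymal cells.

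The Runx2, osteoblast Runx2 and Foxa2 lists chose the sites, so the values of these 3 lists are given as a description. The Jun and 3T3 lists took no part in the choice. With 1 list per group there are no replicates behind any value, and read depth is not known. Shares carry 95% Wilson intervals and odds ratios conditional 95% intervals, which cover counting error only. Fisher's exact tests (two-sided) therefore compared the peaks of these lists, not animals or cultures, and neighbouring peaks are not independent. The p-values were adjusted over all 15 tests by the Benjamini-Hochberg method. All chondrocyte samples were from rib and all osteoblast samples from calvaria, and the 2 factors set beside Runx2 were each precipitated from 1 of these cell types, so a difference by factor, cell type or skeletal site cannot be told apart. Positions are in build mm9 and counted from 1. A genome sequence or gene annotation of that build was not used here, so the sites carry no gene name, motif or sequence.

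At most of the sites the Runx2 and Foxa2 peaks lay almost on top of each other. The centres of the 2 peaks were a median of 44 bp apart (quartiles 21.5 and 80.5 bp, range 0 to 322 bp). They were within 20 bp of each other at 573 sites (23.7%, 22.1 to 25.5%), within 50 bp at 1348 (55.8%, 53.8 to 57.8%) and within 100 bp at 2015 (83.4%, 81.9 to 84.8%). The overlap that chose the sites also limits this distance. At the 402 chondrocyte Runx2 peaks with Foxa2 that were also in the osteoblast list, the median was 46.5 bp (interval of the median 40.5 to 52.5 bp, against 42 to 45.5 bp at the chondrocyte-only sites). The spacing was also alike whether or not a 3T3 Runx2 day 3 peak overlapped the site. The median was 44 bp at the 565 sites with such a peak and 44 bp at the other 1851.

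**Figure D1:**
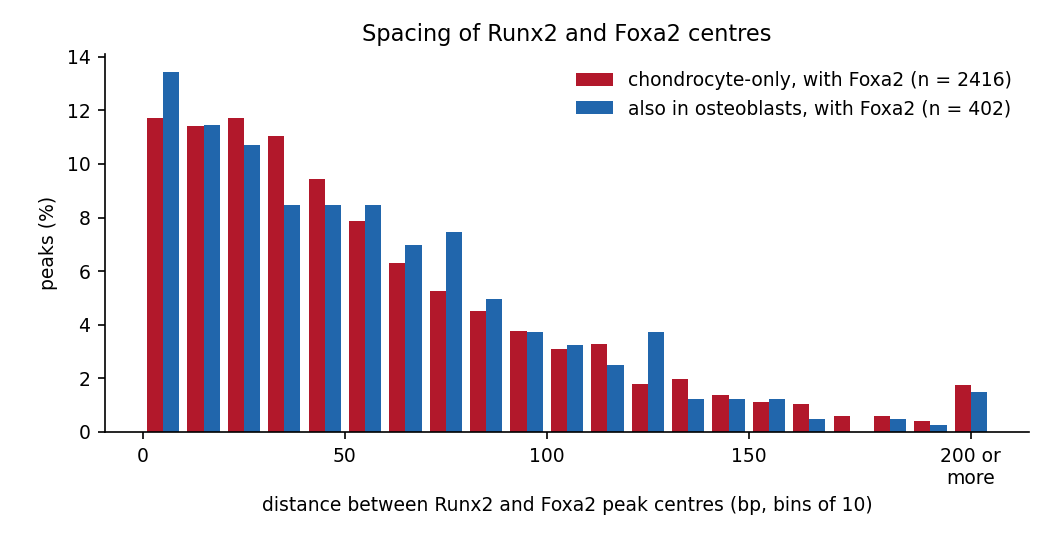
Distance between the centres of a Runx2 peak and its nearest overlapping Foxa2 peak (x axis, bp, bins of 10, the last bin holding all of 200 bp or more) against the share of peaks (y axis, percent). Chondrocyte-only sites (n = 2416) are about level up to 40 bp, at 11.1 to 11.7% per bin, and then fall off. Peaks also found in osteoblasts (n = 402) are most frequent in the first bin (13.4%). The medians are 44 and 46.5 bp.

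The match was close to 1 to 1. The sites corresponded to 2427 Foxa2 peaks, 16.5% of the 14738 in that list. At 19 sites there were 2 or more Foxa2 peaks, and 8 Foxa2 peaks spanned 2 or more sites. The Runx2 peaks of the sites had a median width of 142 bp, against 137 bp for the 8366 chondrocyte-only peaks without Foxa2 and 136 bp for the whole list. Their Foxa2 peaks had a median width of 124 bp, against 119 bp for the 11776 Foxa2 peaks without Runx2 in either primary cell type. Wider peaks meet other peaks more easily, so these widths are given without a test. The Runx2 peak was the wider one at 1437 sites (59.5%). It lay wholly inside the Foxa2 peak at 307 sites (12.7%) and wholly enclosed it at 491 (20.3%). The shared stretch had a median length of 89 bp, and at 2001 sites (82.8%) it covered at least 50% of the shorter peak.

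Single sites show this range. The widest Runx2 peak of the set lay on chromosome 15 from 50078278 to 50079159 (882 bp) and wholly enclosed a Foxa2 peak of 451 bp. The next widest was on chromosome 17 from 44705988 to 44706484 (497 bp), with a Foxa2 peak of 203 bp centred 188 bp away. It was followed by a peak on chromosome 17 from 14592649 to 14593144 (496 bp), whose Foxa2 peak of 114 bp was centred 190 bp away. In all 3 wide peaks Foxa2 was off the centre, by 107.5 bp in the widest. At 3 sites named for the closest centres the distance was 0 bp. They lay on chromosome 10 (34105211 to 34105419), chromosome 18 (57926714 to 57926897) and chromosome 16 (95130293 to 95130455). In each of these 3 the Foxa2 peak (113, 114 and 129 bp wide) sat in the middle of a wider Runx2 peak, and none overlapped any Jun or 3T3 list. The most distant pairs had centres 322 bp apart (chromosome 6, 51069734 to 51069974), 292 bp apart (chromosome 5, 64716134 to 64716294) and 289.5 bp apart (chromosome 2, 4908557 to 4908833). Each of these paired a Runx2 peak of 161 to 277 bp with a Foxa2 peak of 455 to 484 bp, and none overlapped Jun or 3T3 lists either. Of all 2416 sites, 71.4% likewise overlapped none of these lists. The closest sites were named by width among those at 0 bp. Another site at 0 bp, on chromosome 11 (58977333 to 58977455), was in every Jun and 3T3 list except GFP day 0.

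The limit of 1 bp decided few sites. Only 64 of the 2416 shared 10 bp or fewer with Foxa2, and 57 chondrocyte-only peaks without Foxa2 lay within 10 bp of a Foxa2 peak. Just inside, 3 named peaks shared 1 bp, on chromosome 2 (71568802 to 71569022 and 103426596 to 103426706) and chromosome 3 (121387639 to 121387657). Just outside, 3 named peaks on chromosome 2 (115681697 to 115681749 and 128701416 to 128701519) and chromosome 4 (43772531 to 43772689) adjoined a Foxa2 peak with a gap of 0 bp.

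The first comparison asked how the sites with Foxa2 differed from the chondrocyte-only Runx2 peaks without it in lists that the choice did not use. The sites with Foxa2 were less often found in all 5 of those lists. Most of them, 1726 of 2416 (71.4%, 69.6 to 73.2%), were in none of the 5 lists, against 39.1% (38.1 to 40.1%) of the peaks without Foxa2 and 36.6% of all chondrocyte Runx2 peaks. Jun in osteoblasts overlapped 90 sites, or 3.73% (14.7% without Foxa2 and 17.8% of all chondrocyte Runx2 peaks). The odds ratio was 0.225 (0.178 to 0.280; Fisher's exact test, adjusted p = 5.10e-58).

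Runx2 in 3T3 fibroblasts met the sites less often than the peaks without Foxa2. The 3T3 Runx2 lists were the longest of the 5, with 31013 peaks at day 0 by name and 50180 at day 3, against 14937 for Jun, 2475 for GFP day 0 and 16799 for GFP day 3 by name, so shares in different lists are not set against each other. The list named for 3T3 Runx2 day 0 overlapped 405 sites (16.8%, 15.3 to 18.3%), against 44.2% (43.2 to 45.3%) of the peaks without Foxa2 and 48.2% of all chondrocyte Runx2 peaks. This gave an odds ratio of 0.254 (0.226 to 0.285; Fisher's exact test, adjusted p = 2.30e-143). At day 3 of osteogenic medium the overlap was 565 sites (23.4%, 21.7 to 25.1%), against 49.3% (48.2 to 50.4%) and, for all chondrocyte Runx2 peaks, 52.7%. The odds ratio was 0.314 (0.282 to 0.348; Fisher's exact test, adjusted p = 1.84e-118).

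The GFP lists, FLAG precipitations from cells that overexpressed GFP in place of tagged Runx2, met few of the sites. GFP day 0 overlapped 2 sites (0.0828%), against 2.14% of the peaks without Foxa2 and 2.86% of all chondrocyte Runx2 peaks (odds ratio 0.0379, 0.00455 to 0.139; Fisher's exact test, adjusted p = 3.23e-17). By its own name, the GFP day 3 list overlapped 8 sites (0.331%), against 12.4% and, for all chondrocyte Runx2 peaks, 13.6% (odds ratio 0.0235, 0.0101 to 0.0466; Fisher's exact test, adjusted p = 4.57e-106). Leaving aside the exchange of lists described next, the odds ratio ranged from 0.0281 (peaks at or above the median width) to 0.0702 (at least 50% overlap) for GFP day 0. For GFP day 3 it ranged from 0.0132 (all peaks set to 200 bp) to 0.0351 (centres within 250 bp). In the labels, 2 of the 3T3 lists are swapped: the sample of Runx2 day 0 cites the file called GFP day 3 and the reverse. Every value here goes by the name of the list. With the 2 exchanged, Runx2 day 0 would carry the odds ratio of 0.0235 against peaks without Foxa2 and GFP day 3 that of 0.254, both still below 1. The share was lower with Foxa2 on 20 of 20 chromosomes for Jun and both Runx2 lists of 3T3 cells. For GFP day 3 it was lower on 20 and for GFP day 0 on 19. With only 8 and 2 sites in the GFP lists, most chromosomes had no such site, which largely fixed these 2 counts.

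**Figure D2:**
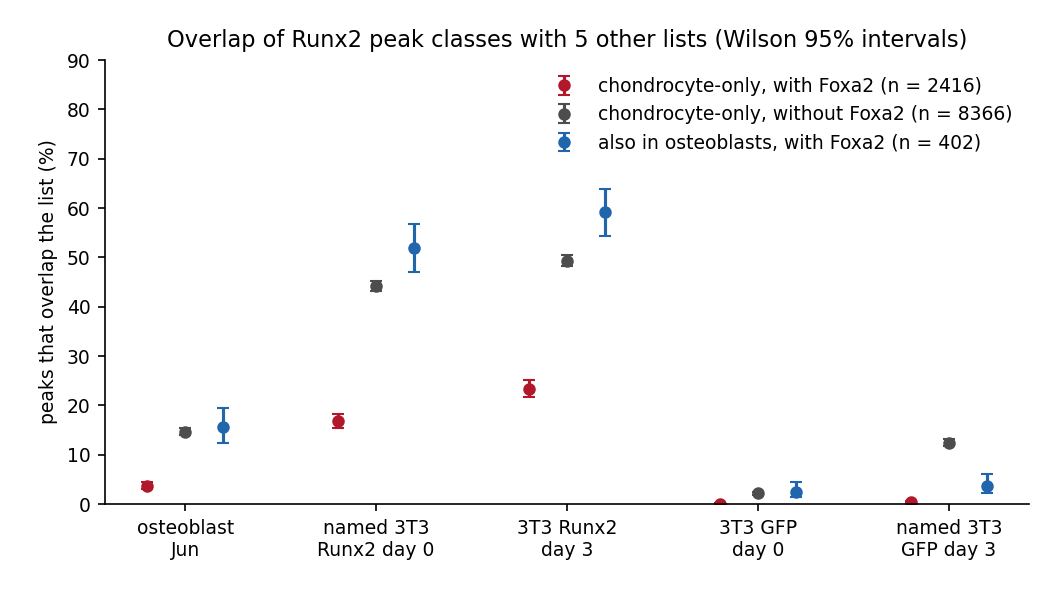
Share of peaks (y axis, percent) that overlap each of 5 lists (x axis), with Wilson 95% intervals, for chondrocyte-only Runx2 peaks with Foxa2 (n = 2416), chondrocyte-only peaks without Foxa2 (n = 8366) and chondrocyte Runx2 peaks with Foxa2 that are also osteoblast peaks (n = 402). The 2416 sites have the lowest share in every list, from 0.0828% for GFP day 0 to 23.4% for 3T3 Runx2 day 3.

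Place in the file moved with these overlaps. The sites with Foxa2 were spread evenly over the chondrocyte Runx2 list, with 248 of the first 1539 lines (16.1%) and 231 of the last 1539 (15.0%). Peaks without Foxa2 were few at the start (237, 15.4% of the first 1539 lines) and many at the end (1194, 77.6% of the last 1539). Among chondrocyte-only peaks, those with Foxa2 were therefore the larger class in the first 1539 lines and much the smaller in the last. The median lines with and without Foxa2 were 7485.5 and 9670 of 15390. From the first to the last 1539 lines, the share of sites in the list named for 3T3 Runx2 day 0 went from 29.0 to 6.49%, and that in 3T3 Runx2 day 3 from 36.7 to 16.9%. Jun overlapped 2.42% (6 of 248) of the sites at the start of the file and 3.03% (7 of 231) at its end, while for peaks without Foxa2 it went from 22.4 to 8.46%. Whether these trends of Jun differed between the classes was not tested. Within 10 equal parts of the file order the odds ratio for Jun was 0.205, that for 3T3 Runx2 day 0 by name 0.194 and that for day 3 0.249 (Mantel-Haenszel). The differences from peaks without Foxa2 were therefore as large among peaks of like position. They were smaller once peaks that overlapped a GFP list were left out, with odds ratios of 0.291 for Jun, 0.303 for the list named for 3T3 Runx2 day 0 and 0.366 for day 3. A GFP list met 13.2% of the peaks without Foxa2 and 0.414% of the sites.

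**Figure D3:**
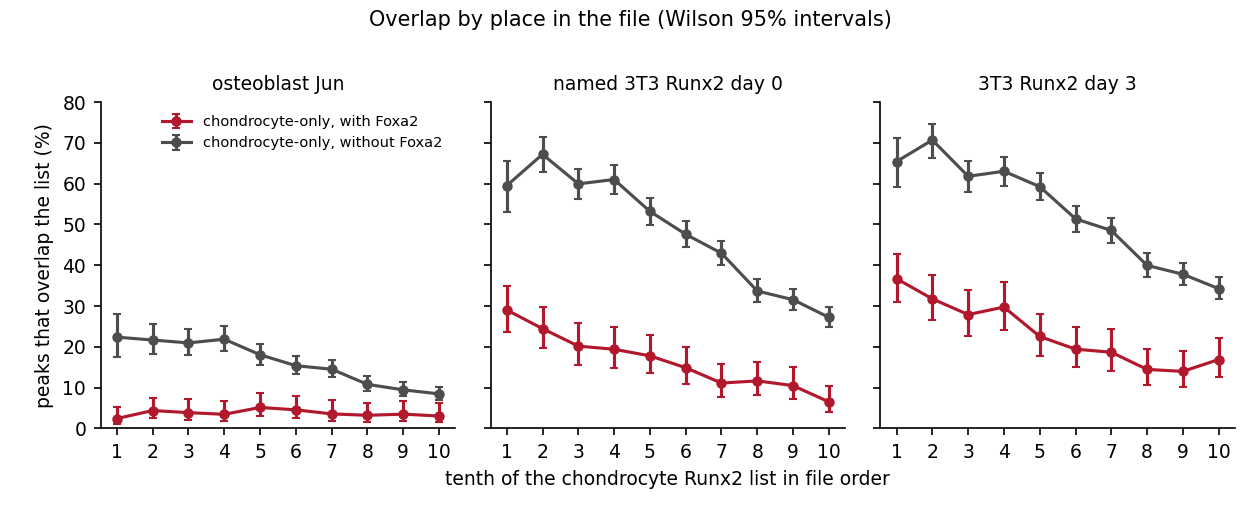
Share of chondrocyte-only Runx2 peaks that overlap Jun, the list named for 3T3 Runx2 day 0 or 3T3 Runx2 day 3 (y axis, percent) in each of 10 equal parts of the chondrocyte Runx2 list in file order (x axis), with Wilson 95% intervals. Sites with Foxa2 lie below those without in all 10 parts of each panel, and their Jun share lies between 2.42 and 5.14%.

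Of the 2416 sites, 325 (13.5%) were in both 3T3 Runx2 lists, 240 (9.93%) in day 3 alone and 80 (3.31%) in the list named for day 0 alone. The same shares were 37.7, 11.6 and 6.49% of the peaks without Foxa2. They were 45.3, 13.9 and 6.72% of the 402 peaks with Foxa2 that were also in the osteoblast list. Among the sites in the day 3 list, 57.5% (53.4 to 61.5%) were also in the list named for day 0, against 76.5% (75.2 to 77.8%) for peaks without Foxa2. Jun overlapped 7.13% (5.39 to 9.38%) of the 645 sites in either 3T3 Runx2 list and 2.48% (1.86 to 3.32%) of the other 1771. For peaks without Foxa2 these shares were 19.8% and 8.20%. Thus the lower Jun share held both among peaks that 3T3 Runx2 also met and among those it did not. These subdivisions were made after the overlaps were known and were not tested.

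Only 33 sites (1.37%) were in Jun and in both 3T3 Runx2 lists. The same combination held for 8.14% of the peaks without Foxa2 and 8.21% of the peaks with Foxa2 that osteoblasts also had. The widest of the 33 sites was the 882 bp peak on chromosome 15 given above. The next widths were 443 bp (chromosome 11, 22337613 to 22338055), 440 bp (chromosome 1, 92793074 to 92793513), 426 bp (chromosome 11, 62780630 to 62781055) and 418 bp (chromosome 4, 114144835 to 114145252). The Foxa2 centre lay 180, 248, 40 and 183.5 bp from the Runx2 centre in these 4. Counted over all 5 lists, 349 sites were in 1 list, 304 in 2, 35 in 3 and 2 in 4. Such counts by number of lists were not made for the other classes. The widest site in exactly 2 lists was on chromosome 5 from 106221635 to 106222125 (491 bp), in both 3T3 Runx2 lists. The 2 sites in 4 lists were on chromosome 3 from 51079966 to 51080118 (153 bp, centres 7.5 bp apart) and, chosen after its values were seen, on chromosome 11 from 58977333 to 58977455 (123 bp, centres 0 bp apart). Both were in every list of the 5 except GFP day 0.

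Where another factor met a site, its peak centre was compared with those of Runx2 and Foxa2. The 3T3 Runx2 peaks lay more often nearer the chondrocyte Runx2 centre, and Jun peaks lay about as often nearer to either. Of the 565 sites in 3T3 Runx2 day 3, the 3T3 centre was nearer to Runx2 than to Foxa2 at 363 (64.2%, 60.2 to 68.1%), with median distances of 65 and 85.5 bp. Where the chondrocyte Runx2 and Foxa2 centres were over 50 bp apart the share was 71.3% (65.4 to 76.6%, n = 251). For the list named for day 0 the shares were 63.2% (58.4 to 67.8%, n = 405) and 68.0% (60.8 to 74.3%, n = 181). For Jun they were 47.8% (37.8 to 58.0%, n = 90) and 54.8% (39.9 to 68.8%, n = 42). In all these cases the third peak was counted because it overlapped the Runx2 peak, whether or not it overlapped the Foxa2 peak, which favours the Runx2 centre. Where several peaks of a list overlapped a site, the one nearest the Runx2 centre was used, which favours it too. The overlap can weigh more where the centres are over 50 bp apart, so the higher shares there are not read further. The 3T3 day 3 centre was farther from the chondrocyte Runx2 centre at the sites with Foxa2 (median 65 bp, 61.5 to 71.5 bp) than at peaks without Foxa2 (50 bp, 48 to 52 bp). For the list named for day 0 these medians were 48.5 and 40 bp, but for Jun they were 52 and 60 bp. At the peaks with Foxa2 that osteoblasts also had, the day 3 median was only 43 bp (36 to 50.5 bp). These distances were not tested.

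The second comparison kept Foxa2 constant and asked how sites of chondrocytes alone differed from the 402 Runx2 peaks with Foxa2 that osteoblasts also had. The chondrocyte-only sites were the less often found of the 2 classes in every list. These classes were split by Runx2 in osteoblasts, and Jun was precipitated from the same cell type. Their overlaps with Jun and with Runx2 of 3T3 cells are therefore not independent of the split. Jun overlapped 3.73% against 15.7% (odds ratio 0.208, 0.146 to 0.298; Fisher's exact test, adjusted p = 4.78e-17). Under the alternatives this odds ratio ranged from 0.136 (first 50% of each list) to 0.222 (without peaks that overlap a GFP list). For 3T3 Runx2 the shares were 16.8% against 52.0% in the list named for day 0 (odds ratio 0.186, 0.148 to 0.234; Fisher's exact test, adjusted p = 6.21e-48) and 23.4% against 59.2% at day 3 (odds ratio 0.210, 0.168 to 0.264; Fisher's exact test, adjusted p = 4.03e-44). The 402 peaks sat early in the file (median line 1346), and within 10 equal parts of the file order the 3T3 odds ratios were 0.290 and 0.326 (Mantel-Haenszel). GFP day 0 overlapped 0.0828% against 2.49% and GFP day 3 by name 0.331% against 3.73% (Fisher's exact test, adjusted p = 1.84e-07 and 3.33e-08). Each of these GFP differences rests on few peaks, 2 and 8 sites against 10 and 15 peaks. That of GFP day 0 did not pass the threshold among peaks at or above the median width (Fisher's exact test, adjusted p = 0.278), nor that of GFP day 3 in the first 50% of each list (adjusted p = 0.0749). With the swapped lists exchanged, the odds ratio read as Runx2 day 0 would be 0.0858. Of the 402 peaks, 29.6% were in none of the 5 lists, against 71.4% of the chondrocyte-only sites.

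The third comparison started from Foxa2 and set the 2427 Foxa2 peaks of the sites against the 11776 Foxa2 peaks without Runx2 in either primary cell type. Foxa2 peaks at the sites were more often met by Jun and by Runx2 of 3T3 cells. The 2 classes were split by the presence of Runx2 in primary cells, so their overlaps with Runx2 of 3T3 cells are not independent of the split. Jun overlapped 77 of them (3.17%), against 1.08% of Foxa2 peaks without Runx2 and 1.87% of all Foxa2 peaks (odds ratio 3.01, 2.23 to 4.03; Fisher's exact test, adjusted p = 1.86e-12). In 10 equal parts of the Foxa2 file order this odds ratio was 1.68 (Mantel-Haenszel). The list named for 3T3 Runx2 day 0 overlapped 380 (15.7%), against 3.70% and, for all Foxa2 peaks, 7.08% (odds ratio 4.83, 4.16 to 5.60; Fisher's exact test, adjusted p = 9.56e-91). 3T3 Runx2 day 3 overlapped 546 (22.5%), against 6.51% and, for all Foxa2 peaks, 10.8% (odds ratio 4.17, 3.69 to 4.71; Fisher's exact test, adjusted p = 1.49e-108). Within 10 equal parts of the Foxa2 file order these 2 odds ratios were 3.29 and 3.09 (Mantel-Haenszel), and in the first 50% of each list they were 8.51 and 7.20.

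The GFP lists met Foxa2 peaks rarely in both classes. GFP day 0 overlapped 0.0824% of the Foxa2 peaks of the sites, 0.153% of those without Runx2 and 0.224% of all Foxa2 peaks (odds ratio 0.539, 0.0606 to 2.25; Fisher's exact test, adjusted p = 0.558). By name, GFP day 3 overlapped 0.412%, 0.569% and, for all Foxa2 peaks, 0.665% (odds ratio 0.723, 0.331 to 1.42; Fisher's exact test, adjusted p = 0.479). Neither difference passed the threshold, and these intervals allow ratios on both sides of 1. Within 10 equal parts of the Foxa2 file order the GFP day 3 odds ratio was 0.401 (0.203 to 0.794; Mantel-Haenszel) and did pass it. With the swapped lists exchanged, the list read as Runx2 day 0 would carry the odds ratio of 0.723 and the one read as GFP day 3 that of 4.83. Foxa2 peaks of the sites stood early in the Foxa2 file: they were 36.8% of its first 1474 lines and 6.31% of its last 1473.

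The shares with a peak of another list nearby were also lower at the sites. A Jun peak lay within 1 kb of 6.25% of the sites (5.35 to 7.29%), against 2095 of the 8366 chondrocyte-only peaks without Foxa2, counts that include the overlaps given above. Among the 2326 sites that no Jun peak overlapped, 2.62% (2.05 to 3.35%) had one within 1 kb, against 12.1% (11.4 to 12.9%) of the 7137 such peaks without Foxa2. Within 50 kb these shares were 51.1% and 58.0%. Among the 1851 sites that no 3T3 Runx2 day 3 peak overlapped, 12.5% (11.1 to 14.1%) had one within 1 kb, against 24.3% (23.1 to 25.7%) of the 4240 such peaks without Foxa2, and 71.7% against 77.3% within 50 kb. By the rule no osteoblast Runx2 peak overlapped either class, but one lay within 1 kb of 1.90% (1.43 to 2.53%) of the sites and 7.39% (6.85 to 7.97%) of the peaks without Foxa2. Within 50 kb these shares were 47.8% and 52.4%. As a ratio between the classes, the shares were closer at 50 kb than at 1 kb for all 3 lists. A wider window raises the shares of both classes, which itself draws such a ratio towards 1. It therefore does not show that the differences were local. The counts without overlapping peaks were added after the overlaps were known, and no neighbour share was tested.

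**Figure D4:**
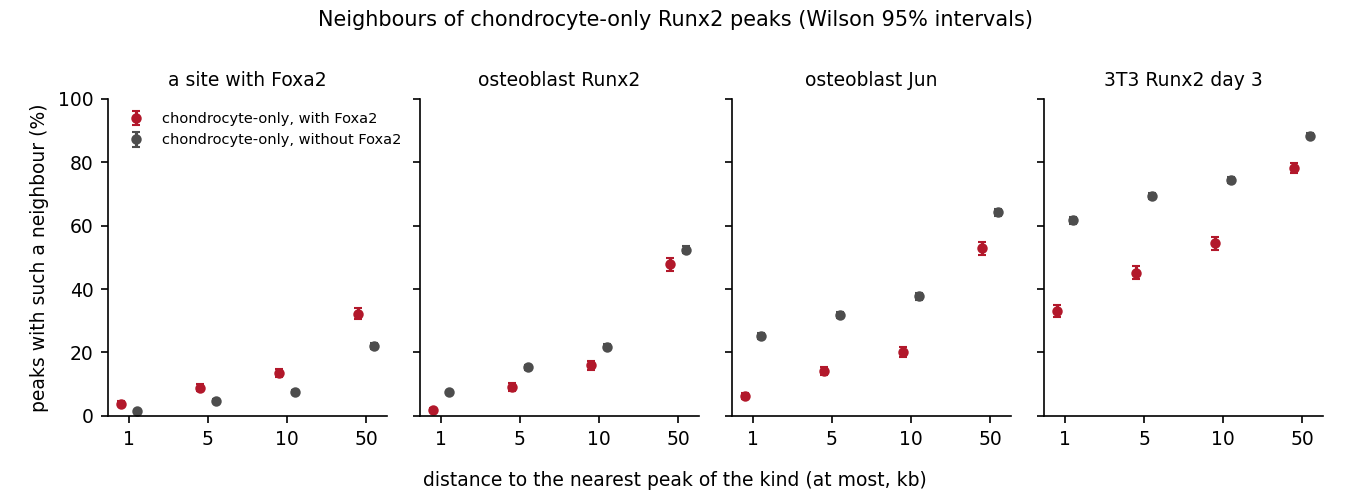
Share of chondrocyte-only Runx2 peaks (y axis, percent) with a peak of another kind within 1, 5, 10 or 50 kb (x axis), with Wilson 95% intervals. In the first panel the neighbour is a site with Foxa2 for both classes, another one for the sites themselves. That share is higher for sites with Foxa2 (13.4 against 7.49% within 10 kb). Their shares with osteoblast Runx2, Jun and 3T3 Runx2 day 3 nearby are lower. Overlapping peaks are counted in the Jun and 3T3 panels and, where Runx2 peaks overlap each other, in the first panel.

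The sites were found on all chromosomes of the chondrocyte Runx2 list, at 10.6% (X) to 19.1% (14) of its peaks there. Most stood alone. Another site lay within 10 kb of 324 of them (13.4%, 12.1 to 14.8%). Where neighbours at most 20 kb apart were joined, 1958 sites stood singly, and 458 formed 209 runs, of which 175 held 2 sites, 29 held 3, 4 held 4 and 1 held 5. Runs of the other peak classes were not counted, so these numbers have no comparison.

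The run of 5 lay on chromosome 6 from 52122747 to 52161781 (39.0 kb) and held 6 chondrocyte Runx2 and 13 Foxa2 peaks. All 5 of its sites overlapped 3T3 Runx2 day 3, and the first and last also the list named for day 0. It held no osteoblast Runx2 and no Jun peak, and 8 peaks called GFP day 3, none of which overlapped one of the 5 sites. The absence of osteoblast Runx2 at the 5 sites themselves follows from the rule.

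The runs of 4 differed from it. The shortest was on chromosome 3 from 57352159 to 57359789 (7.63 kb), with 5 chondrocyte Runx2 peaks, 3 Foxa2 peaks and no peak of any other list. Its first 2 Runx2 peaks overlapped each other and shared 1 Foxa2 peak. The next was on chromosome 6 from 8703029 to 8720283 (17.3 kb), with 4 Runx2 and 5 Foxa2 peaks and again no peak of the other lists. These 2 runs held peaks of the chondrocyte lists only.

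A run on chromosome 11 from 45634645 to 45666280 (31.6 kb) held 2 osteoblast Runx2 peaks that overlapped none of its sites, and 3 of its 4 sites overlapped a 3T3 Runx2 list of 1 day. On chromosome 7 a run from 124635273 to 124674385 (39.1 kb) held 3T3 Runx2 peaks, but none of its 4 sites overlapped one. The tightest run of 3 was on chromosome 1 from 71802064 to 71804173 (2.11 kb), with 4 Foxa2 peaks, no 3T3 peak and 1 Jun peak, which overlapped its first site. Of the 6 runs named, 5 held no osteoblast Runx2 peak. By the rule no site of a run can overlap one, and of all 2416 sites only 15.9% (14.5 to 17.4%) had one within 10 kb.

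**Figure D5:**
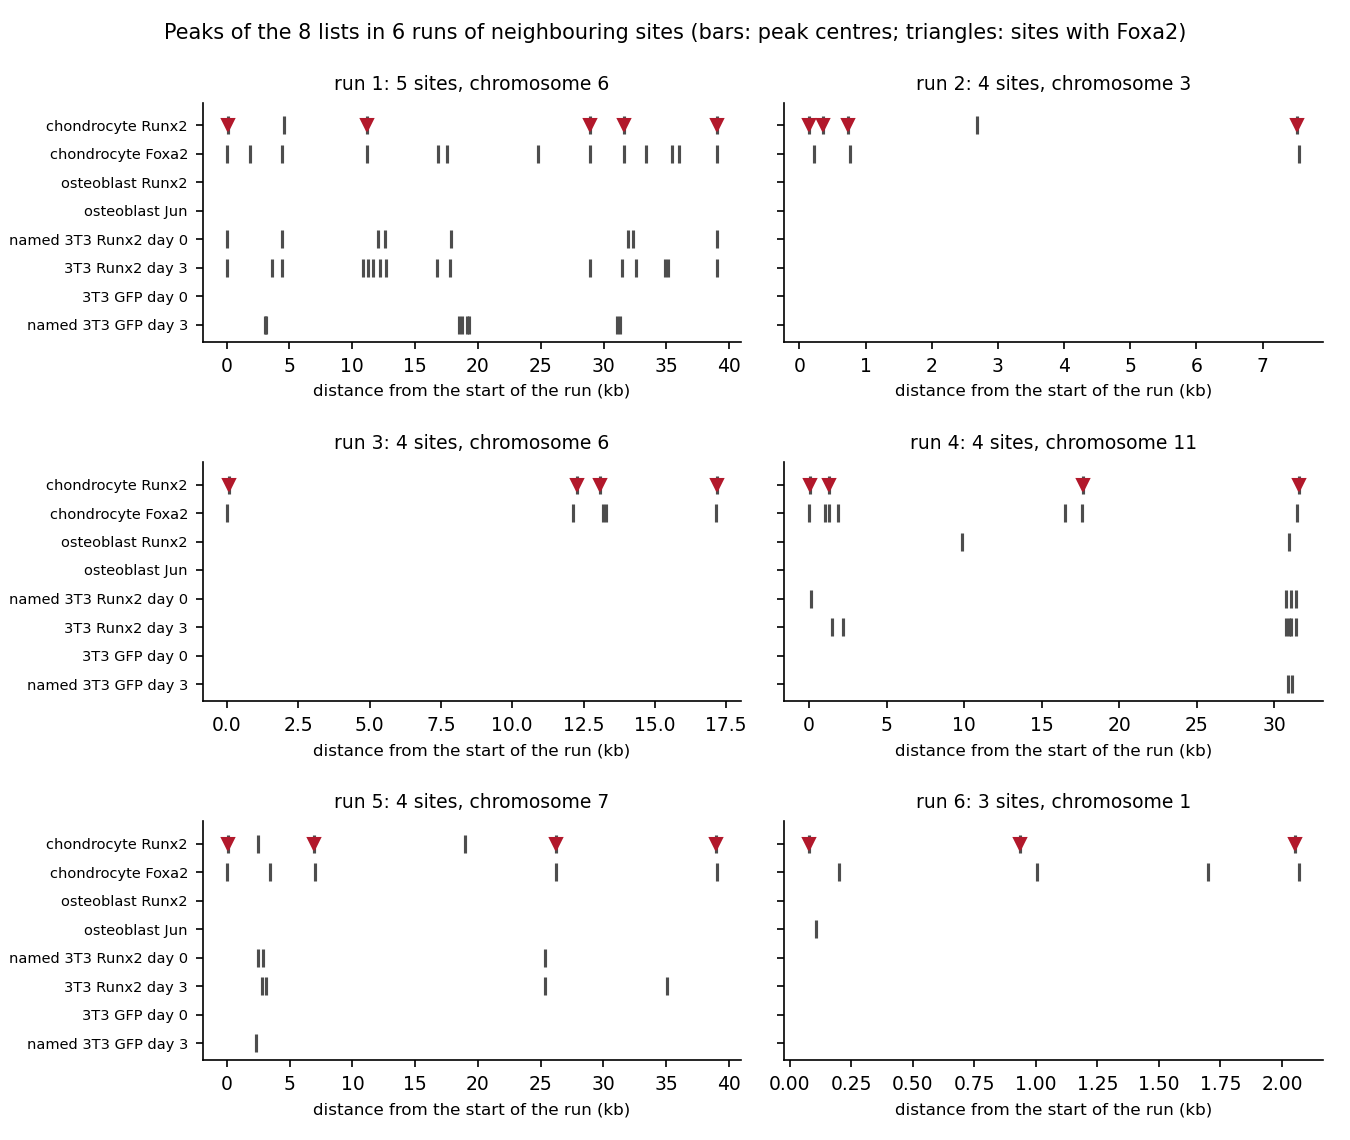
Peaks of the 8 lists (rows) in the 6 runs with the most sites, by distance in kb from the start of each run (x axis). Grey bars mark peak centres and red triangles the chondrocyte-only Runx2 sites with Foxa2. Runs 2 and 3 hold chondrocyte peaks only, run 6 adds 1 Jun peak, and run 4 is the one with osteoblast Runx2 peaks.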

How the data were processed

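ChIP-seq peak lists of 8 groups were used. The authors deposited them as genome positions in 3 columns with no other value (chromosome, start and end, as the deposited files show), so peaks could not be ranked by strength. Per the submitters' processing notes, positions are in mm9, and the tools named, without a step, are Bowtie and DiffBind. The caller of the peaks, its threshold, its controls, the pooling of libraries and the read depth are not given in the sources used here. The ATAC-seq, input and IgG samples were not analysed here.

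Peaks overlapped at 1 bp or more. Peak classes were compared by Fisher's exact tests and Mantel-Haenszel odds ratios (Python 3.11.15, NumPy 2.4.6, SciPy 1.17.1, statsmodels 0.14.6; figures matplotlib 3.10.9). Of 15 tests, 13 had an adjusted p under 0.05. Overlaps were checked against bedtools 2.31.1, and the tests on simulated data. Named sites were the 3 widest, the 3 with the closest and the 3 with the most distant centres, the widest by number of lists, up to 5 in Jun and both 3T3 Runx2 lists, those at the limit of the rule, and the 6 largest runs. The members, rules and tests were chosen with earlier results of these data known. Gene and promoter tables of mm9 were not used here, so the planned motif and gene comparisons were not run, nor were the marker gene lists used.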

Additional observations from a re-analysis of the deposited data

How the results depend on the processing

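Under 11 alternatives, 149 odds ratios were recomputed, of which 144 kept their direction and their side of the adjusted threshold, among them all 53 against peaks without Foxa2. The other 5 concerned the GFP lists, where few of the sites' peaks overlapped. The exchange of the swapped lists only relabels values, and is given apart. For GFP day 0 against shared peaks with Foxa2 the odds ratio was 0.147 at or above the median width (Fisher's exact test, adjusted p = 0.278), and for GFP day 3 by name it was 0.144 in the first 50% of each list (adjusted p = 0.0749). Against Foxa2 peaks without Runx2, GFP day 0 reversed to 1.47 at or above the median width and GFP day 3 to 1.54 in the first 50% of each list. GFP day 3 was 0.401 and passed the threshold over 10 parts of the file order (Mantel-Haenszel). Against those peaks the exchange took 3T3 Runx2 day 0 to 0.723 and GFP day 3 to 4.83.

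The number of sites ranged from 1175 (first 50% of each list) and 1362 (at or above the median width) to 2708 (centres within 250 bp). The share in no other list moved to 75.4% with at least 50% overlap, 69.4% with centres within 250 bp and 74.7% in the first 50% of each list. The median centre distance moved to 35.5 bp with at least 50% overlap, 50.5 bp with centres within 250 bp, 48 bp with all peaks at 200 bp, 52.75 bp at or above the median width and 40.5 bp in the first 50%, where the median width was 137 bp. Another site lay within 5 kb of 8.86% and within 50 kb of 32.2% of sites. Motif and gene alternatives were not run. No paired analysis was possible because each group had 1 peak list, and for the same reason no library could be left out. Depth was not given, so how far it limits the overlaps was not tested.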

Other observations

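The 10 sites in a GFP list, chosen after their values were seen, differed in what else they overlapped. The site on chromosome 17 from 48112614 to 48112858 (245 bp) was in GFP day 3 by name and in no other of the 5 lists. The widest of them, on chromosome 10 from 76188687 to 76189152 (466 bp), was in Jun and GFP day 3 and in no 3T3 Runx2 list. The 2 sites in GFP day 0 were both in 3T3 Runx2 day 3: one on chromosome 14 (28409612 to 28409715, centres of Runx2 and Foxa2 40.5 bp apart) and one on chromosome 15 (56524900 to 56525216, centres 146.5 bp apart).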
